A study of Mus musculus with 11 samples.

Results

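Interferon-responsive microglia were taken from the single-cell libraries of sorted brain macs as the cells with at least 2 unique molecular identifiers (UMIs, counts of captured RNA molecules) of Ifit3 and at least 1 of Isg15. The rule found 101 such cells among 6598 barcodes before any filter and 96 among the 6073 microglia that passed the cell filter, 14 of 2830 in the WT library and 82 of 3243 in the Zeb2KO library. They are described against the cells of the same library with 0 Ifit3 UMIs, 2758 in WT and 2933 in Zeb2KO, called Ifit3-negative here. Because the cells were chosen by their Ifit3 and Isg15 UMIs, the levels of these 2 genes are given as a description only.

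Type I interferon binds the receptor IFNAR, which acts through JAK kinases to assemble a transcription factor complex that binds interferon-stimulated response elements in the promoters of interferon-stimulated genes. The products of these genes block viral RNA and protein synthesis, sense foreign nucleic acid, present antigen and feed back on the pathway. Microglia, the macs of the brain parenchyma, can enter this state, and a small share of cells with it is a known feature of mouse brain.

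The study asked what Zeb2, a transcription factor present in macs of every tissue, does for the identity of tissue macs. WT cells came from mice with Zeb2fl/fl alleles and no CRE, and Zeb2KO cells from Fcgr1-cre x Zeb2fl/fl littermates, all young adults on a C57Bl/6 background per the methods. The labels give no treatment. Per the study's text the Fcgr1-driven CRE also acts in other immune cells, and the tissue was digested with enzymes before live F4/80+ CD64+ cells with intermediate CD45 were sorted from brain. Each genotype is 1 library, and the sources used here do not give how many mice went into it, so that within brain the genotype and the library cannot be told apart and no test was possible. Counts are given with exact Poisson intervals and shares with exact Clopper-Pearson intervals at 95%, which cover counting error only. Zeb2 reads did not check the deletion, since the 3′ end that was sequenced stays in the recombined allele.

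The upstream stretches of the 4 genes that mark the state are shown because they carry the element this pathway acts through. Each is the 200 bases before the annotated start, on the gene's own strand, from RefSeq on GRCm38.p6, with matches to GAAANNGAAA or its reverse complement TTTCNNTTTC in capitals. Clec2d is added as a gene outside the interferon lists that held the motif and was higher in these cells.
Ifit3 (chr19:34583329-34583528, + strand): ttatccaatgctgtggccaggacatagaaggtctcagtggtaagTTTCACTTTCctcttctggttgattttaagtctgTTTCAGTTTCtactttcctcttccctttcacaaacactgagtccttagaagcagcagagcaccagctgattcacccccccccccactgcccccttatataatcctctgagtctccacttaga
Ifit1 (chr19:34640689-34640888, + strand): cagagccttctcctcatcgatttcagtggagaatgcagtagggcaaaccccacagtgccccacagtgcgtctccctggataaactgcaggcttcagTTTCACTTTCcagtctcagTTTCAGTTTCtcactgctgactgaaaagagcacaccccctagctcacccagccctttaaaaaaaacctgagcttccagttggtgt
Rsad2 (chr12:26456453-26456652, - strand): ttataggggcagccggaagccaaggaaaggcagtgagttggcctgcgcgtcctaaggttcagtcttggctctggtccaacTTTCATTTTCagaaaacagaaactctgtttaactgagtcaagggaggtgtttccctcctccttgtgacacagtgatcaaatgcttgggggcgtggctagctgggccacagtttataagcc
Isg15 (chr4:156200819-156201018, - strand): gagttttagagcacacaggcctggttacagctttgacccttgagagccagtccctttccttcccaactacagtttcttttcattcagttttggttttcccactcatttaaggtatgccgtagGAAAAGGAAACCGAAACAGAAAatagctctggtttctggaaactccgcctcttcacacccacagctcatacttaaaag
Clec2d (chr6:129180415-129180614, + strand): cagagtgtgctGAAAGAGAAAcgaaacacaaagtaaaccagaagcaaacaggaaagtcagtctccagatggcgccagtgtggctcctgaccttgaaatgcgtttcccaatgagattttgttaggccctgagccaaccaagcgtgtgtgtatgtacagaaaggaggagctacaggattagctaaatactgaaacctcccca
Ifit3 and Ifit1 each held 2 matches, Rsad2 and Clec2d 1 each, and Isg15 held 3 that overlap one another. Irf7, searched in the same window and not printed, held 0. A match is a description of the letters in this window and not a site at which binding was measured.

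The chosen cells carried the microglial signature. After every cell had been thinned to 2600 UMIs, P2ry12, the purinergic receptor used to define microglia, was detected in 13 of 13 WT and 78 of 81 Zeb2KO cells, and Tmem119, a surface protein of microglia, in 13 of 13 and 77 of 81. The summed level of 10 microglia markers was 33634 CPM (UMIs of a class scaled to a fixed total) in the WT interferon-responsive cells against 35521 CPM in WT Ifit3-negative cells, and 17489 against 21314 CPM in Zeb2KO. None of the 10 differed 2-fold in both libraries, and few genes did, since 0.669% of 1196 genes outside the interferon lists were higher and 0 lower. Markers of other cells had few UMIs in the chosen cells. Neutrophil and neuron markers had 0 UMIs in both libraries, T or NK cell markers 0 in WT and 1 in Zeb2KO, astrocyte markers 0 and 1, dendritic cell markers 0 and 5, monocyte markers 0 and 9, border macrophage markers 3 and 3, B cell markers 2 and 6, oligodendrocyte markers 3 and 15, erythroid markers 3 and 20, and endothelium markers 2 and 30. In Zeb2KO the endothelium markers summed to 64.5 CPM against 28.7 CPM in Ifit3-negative cells and the monocyte markers to 19.3 against 9.20 CPM, and in WT the border macrophage markers, with 3 UMIs, to 49.6 against 13.2 CPM, whose part in the results was not tested. The interferon-responsive cells held a median of 4347 UMIs in WT and 5426 in Zeb2KO, against 4187.5 and 4913 in the Ifit3-negative cells, and their mitochondrial share was 0.904% and 1.73% against 1.01% and 1.64%.

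Interferon-responsive cells made up a larger share of the Zeb2KO library. The share was 0.495% of WT microglia (0.271 to 0.829%) and 2.53% of Zeb2KO microglia (2.02 to 3.13%), a 5.11-fold difference (2.88 to 9.76). The rule depends on how many molecules were read per cell, and the Zeb2KO cells were read more deeply. After thinning to 2600 UMIs, which left out 244 WT and 162 Zeb2KO cells, 7 of 2586 WT and 47 of 3081 Zeb2KO cells met the rule, 0.271% (0.109 to 0.557%) and 1.53% (1.12 to 2.02%), and the ratio was 5.64 (2.53 to 14.8). The intervals of the genotypes did not overlap at either depth, but they did at 1000 UMIs, where 6 of 2830 WT cells (0.212%, 0.0778 to 0.461%) and 20 of 3243 Zeb2KO cells (0.617%, 0.377 to 0.951%) met the rule. The same rule in the macs of colon, liver, lung and spleen served to ask whether the direction held across tissues, over 5 tissue pairs. The labels give Fcgr1-cre x Zeb2fl/fl for every Zeb2KO library, whereas the study's text has the liver macs deleted by Clec4f-cre and the lung macs by Itgax-cre, so that the pairs may not share 1 deletion. An additional liver library came from Nr1h3fl/fl mice without CRE, and 9.34% of its cells met the rule. The share was 1.33% in WT and 1.37% in Zeb2KO colon, 12.96% and 14.4% in liver and 0.241% and 0.707% in spleen. In lung it was 0.0637% in Zeb2KO, and 0 of 6993 WT cells met the rule, which allows a share of up to 0.0429% by a limit of 3 counts. The mean difference was 0.802 percentage points and was positive in 5 of 5 pairs (two-sided exact paired permutation test, p = 0.062, the smallest that 5 pairs allow). With the cells of the series thinned to 1000 UMIs, which left out 315 spleen WT cells, it was 0.134 points and positive in 2 of 5 pairs (exact permutation test, p = 0.5), with brain at 0.405, liver at 0.396, lung at 0, colon at -0.0550 and spleen at -0.0741 points. With 5 pairs the test cannot pass 0.05, so that it shows no difference across tissues and does not show that there is none.

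**Figure D1:**
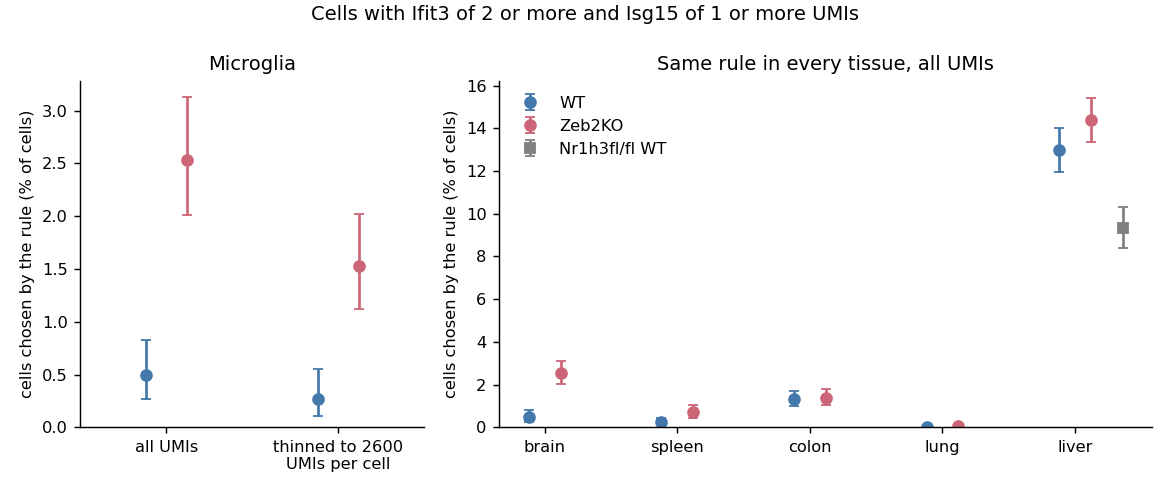
Share of cells that met the Ifit3 and Isg15 rule, in percent of cells, for microglia at 2 depths (left) and for every tissue at all UMIs (right), with points for WT, Zeb2KO and Nr1h3fl/fl WT libraries and bars for exact 95% intervals of counting error. Brain went from 0.495% in WT to 2.53% in Zeb2KO, while colon lay at 1.33% and 1.37%.

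The interferon share varied among the chosen cells. Near the threshold, 5 WT and 6 Zeb2KO cells just met the rule with 2 Ifit3 UMIs and 1 Isg15 UMI. Just outside it, 3 WT and 19 Zeb2KO cells had 2 or more Ifit3 UMIs and 0 of Isg15, and 55 and 209 cells had 1 Ifit3 UMI. The share of a cell's UMIs from the interferon lists, leaving out Ifit3 and Isg15, had a median of 5.09% in the WT interferon-responsive cells (2.55 to 8.04%) and of 5.17% in the Zeb2KO cells (2.56 to 16.6%). In the Ifit3-negative cells the median was 1.73% in WT and 2.84% in Zeb2KO, in cells with 1 Ifit3 UMI 2.003% and 3.33%, and in cells with more Ifit3 but no Isg15 2.23% and 3.83%. The chosen cells overlapped with the negative ones, because 10 of 14 WT and 41 of 82 Zeb2KO cells were above the 99th percentile of the Ifit3-negative cells of their library (3.22% and 5.18%). Within the chosen cells the median was higher with more Ifit3, from 2.98% at 2 UMIs to 5.01% at 3 to 5 and 7.03% at 6 or more in WT, and from 4.32% to 4.91% and 7.85% in Zeb2KO. These classes held 7, 3 and 4 cells in WT and 17, 32 and 33 in Zeb2KO. Since Ifit3 chose the cells, this order is a description only. Counted as genes, the chosen cells showed a median of 57 interferon genes (32 to 84, 13 cells) against 25 in WT and of 55 (33 to 109, 81 cells) against 29 in Zeb2KO at 2600 UMIs.

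**Figure D2:**
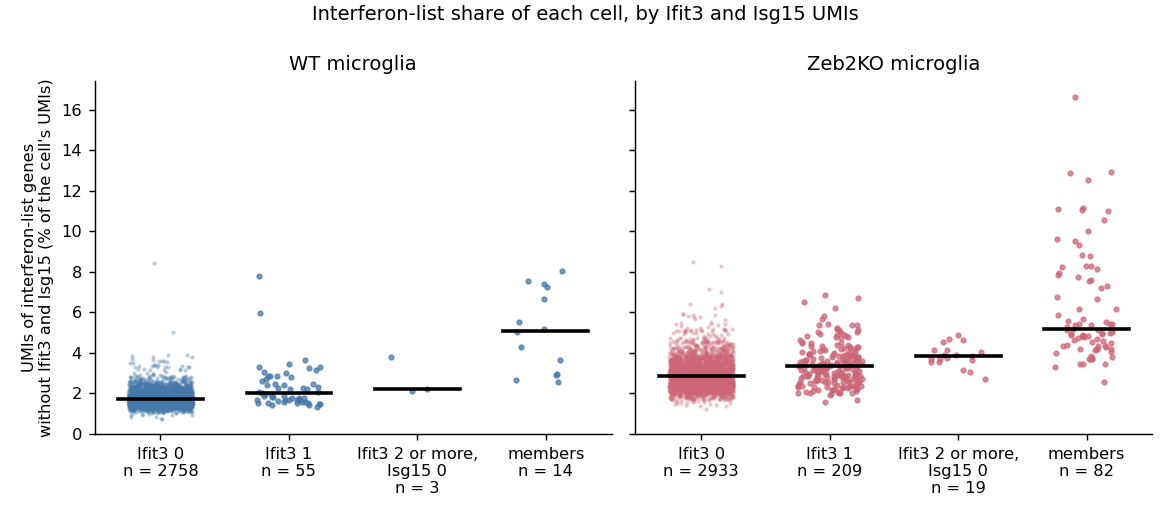
Share of each cell's UMIs from the interferon lists without Ifit3 and Isg15, in percent, by library and Ifit3 class, with 1 point per cell and a line at the median (members are the interferon-responsive cells). The WT interferon-responsive cells lie between 2.55% and 8.04% and the Zeb2KO ones between 2.56% and 16.6%, while the Ifit3-negative medians are 1.73% and 2.84%.

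Individual WT cells differed in which interferon genes they showed. The cell with the most Ifit3 held 22 UMIs of Ifit3, 24 of Isg15, 6 of Ifit1, 17 of Rsad2 and 7 of Irf7. Another with 2 UMIs of Ifit3 and 2 of Isg15 held none of Ifit1 or Rsad2 but 13 of Ifi27l2a, a small mitochondrial protein gene of the interferon response, and its interferon share was 7.25%. In Zeb2KO the chosen cells held between 2 and 55 UMIs of Ifit3 (median 4) and between 1 and 51 of Isg15 (median 4). Oasl2 was detected in 80 of these 82 cells, Ifi27l2a in 63, Irf7 in 52 and Usp18 in 51. Ifit1 was detected in 8 of 14 WT and 42 of 82 Zeb2KO cells, and Rsad2 in 4 of 14 and 33 of 82. Both were present in 4 WT and 25 Zeb2KO cells and neither in 6 and 32, of which 4 and 24 held Ifi27l2a. At this depth 0 UMIs of a gene does not show that a cell lacks it.

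Genes of the interferon lists made up most of those that were higher in the chosen cells. Of 1383 genes at or above 100 CPM in at least 1 class of each library, 65 were at least 2-fold higher in both (4.7%) and 0 at least 2-fold lower (0%). In the interferon lists 57 of 93 genes were higher (61.3%), with a median log2 ratio of 2.10 in WT and 1.56 in Zeb2KO against -0.01 and -0.06 over all genes considered. Of the 258 interferon genes in the tables, only these 93 passed the level filter, and only 34 of them reached 100 CPM in the Ifit3-negative cells of both libraries. A gene admitted only by its level in the chosen cells had to be higher there, though not by 2-fold. The counts over a list are therefore a description only. Among those 34, 6 were higher (17.6%), 9930111J21Rik2, Bst2, Ccl12, Fcgr1, H2-T23 and Psme2, against 0.482% of the 1244 genes of all kinds that did. Ratios are of CPM with 10 CPM added to each class. With 1 library per genotype there is no test, and 2-fold in both libraries is a rule of size. The brain libraries shared 14 cell barcodes, within the 14 to 76 of all pairs of libraries in the series, and 1 chosen cell carried a shared barcode.

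The IFIT and ISG15 system, made of proteins that bind viral RNA and of a ubiquitin-like modifier, was higher in 7 of 7 genes considered (median log2 ratio 4.41 in WT and 4.18 in Zeb2KO). Ifit3 itself stood at 1372 CPM in WT and 1307 CPM in Zeb2KO, and Isg15 at 1240 and 1109 CPM. Ifit1, which binds RNA that lacks a host cap, was 496 CPM (335 to 708) in the WT chosen cells and 449 CPM (390 to 515) in the Zeb2KO ones, against 1.502 and 1.985 CPM in Ifit3-negative cells. Usp18, added after its values were seen, is the protease that removes ISG15 and damps receptor signalling, and reached 331 against 4.17 CPM in WT and 344 against 9.59 CPM in Zeb2KO. Ifit1bl1, another of the 7, had 8 WT UMIs, all in 1 cell, without which its WT log2 ratio went from 3.83 to 0. Counts of Ifit3 and its near-identical copy Ifit3b are uncertain, since reads that match both genes cannot be told apart.

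Antiviral effectors were higher in 14 of 18 genes (2.79 and 2.02). Rsad2 encodes viperin, which makes a chain-terminating nucleotide. Its level was 380 CPM (241 to 570) in WT and 342 CPM (291 to 399) in Zeb2KO, against 0.584 and 2.91 CPM, but 73.9% of the WT UMIs came from 1 cell, without which the WT log2 ratio went from 5.20 to 3.51. Ifitm3, a membrane protein that hinders viral entry, was 1934 against 16.8 CPM in WT and 776 against 40.6 CPM in Zeb2KO. Bst2, which tethers virions to the cell surface, was 1405 against 165 CPM and 1019 against 238 CPM. The OAS genes, which make the second messenger of RNase L, were higher in 2 of 2 (4.56 and 3.69), and Oasl2 went from 3.76 to 496 CPM in WT and from 26.3 to 600 CPM in Zeb2KO. Oas1a was 198 against 3.76 CPM and 187 against 9.86 CPM. The interferon-inducible GTPases were higher in 3 of 3 (2.48 and 1.85), Irgm1 among them at log2 ratios of 3.44 and 2.44.

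Nucleic acid sensors were higher in 6 of 7 genes (3.50 and 2.88). Zbp1, a sensor of Z-form nucleic acid, was 215 against 1.002 CPM in WT and 254 against 9.53 CPM in Zeb2KO. Ifi204, a DNA sensor of a family with near-identical members, was 446 against 5.93 CPM and 636 against 52.5 CPM. Signalling genes were higher in only 2 of 13 (0.09 and 0.09), Irf7 among them. Irf7, the factor that amplifies interferon production, was 347 CPM (215 to 531) against 5.01 in WT and 327 CPM (277 to 383) against 9.53 in Zeb2KO. PARP, TRIM and PML genes were higher in 7 of 8 (2.38 and 2.05), with Parp14 at log2 ratios of 3.12 and 2.65.

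Antigen presentation by MHC class I was higher in 3 of 14 genes (0.72 and 0.65). These were the peptide transporter Tap1 (2.26 and 1.63), the proteasome activator Psme2 (1.58 and 1.07) and the non-classical H2-T23 (1.32 and 1.10). Chemokines and secreted proteins were higher in 3 of 5 (median log2 ratios of 2.004 and 1.19). Ccl12, a monocyte chemoattractant, was 3851 against 156 CPM in WT and 3502 against 185 CPM in Zeb2KO, and 1 cell held 42.1% of the WT and 33.5% of the Zeb2KO UMIs. Without it the log2 ratio was 3.91 in place of 4.54 in WT and 3.61 in place of 4.17 in Zeb2KO. In Zeb2KO the level lay mostly in the cells richest in Ifit3. It was 239 CPM in the chosen cells with 2 Ifit3 UMIs, 665 CPM at 3 to 5 and 8237 CPM at 6 or more. In WT it was 451, 6054 and 7512 CPM in the same order, from 7, 3 and 4 cells. Cxcl10, which attracts T cells and was also added after its values were seen, had 6 UMIs in WT, all in 1 cell, and 501 in Zeb2KO, found in 23 of 82 cells with 33.1% of them in 1 cell. Other interferon-stimulated genes were higher in 11 of 17 (1.74 and 1.25), including Fcgr1, the CD64 Fc receptor whose promoter drives the CRE, at 1917 against 566 CPM in WT and 617 against 259 CPM in Zeb2KO. Ly6a, a surface protein also known as Sca-1, was 545 against 11.8 CPM and 408 against 58.4 CPM, and 1 cell held 57.6% of its WT UMIs, without which the WT log2 ratio went from 4.67 to 3.59.

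**Figure D3:**
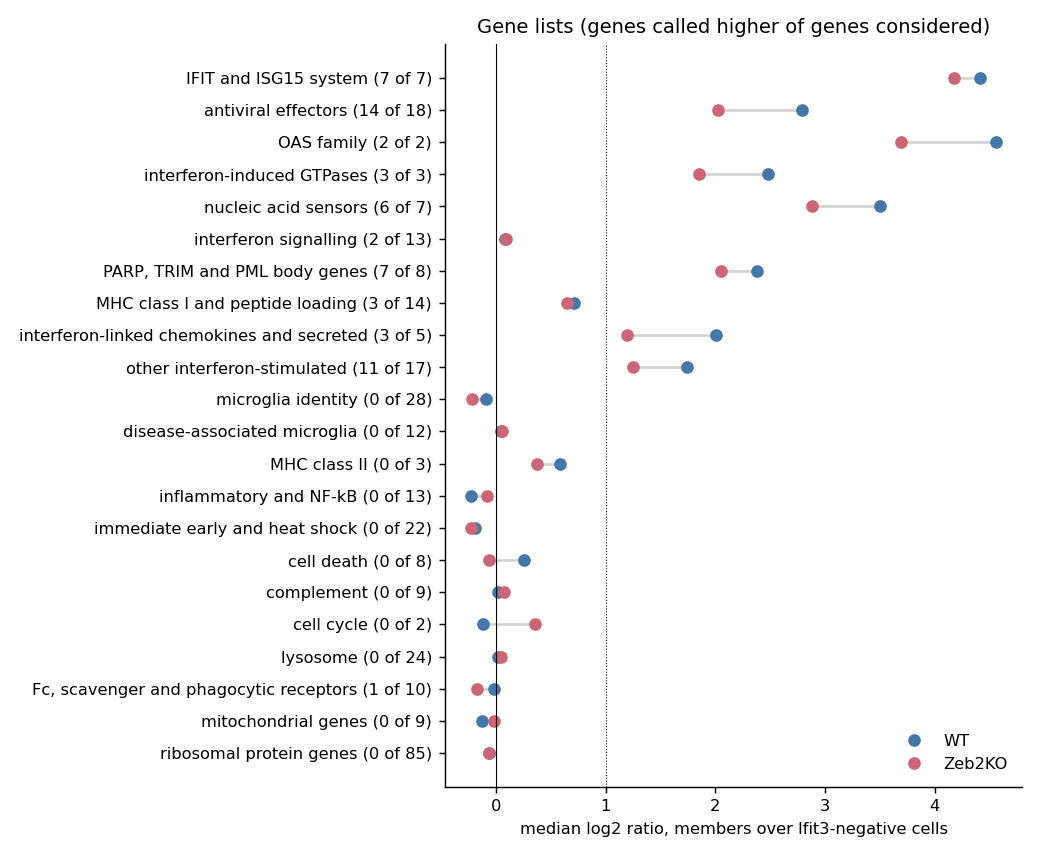
Median log2 ratio of CPM in interferon-responsive cells (members) over Ifit3-negative microglia for the genes of each list, 1 point per library, with a dotted line at 2-fold and the count of genes higher in both libraries beside each name. The IFIT and ISG15 genes have medians of 4.41 and 4.18, and the signalling genes of 0.09 in both.

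The motif shown above was found in the 300-base promoters of 21 of 47 chosen or higher interferon genes with a promoter sequence (44.7%). It was in 6 of 29 interferon genes that were considered and not higher (20.7%), in 33 of 1013 other genes considered (3.26%) and in 3.99% of all 27025 promoters. Of the genes higher outside the lists, 2 of 7 held it (28.6%), Clec2d and Pvrl4.

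Beyond the interferon lists, 8 of 1196 genes considered, leaving out ribosomal and mitochondrial genes, were at least 2-fold higher in both libraries (0.669%) and 0 were lower. None of the 8 reached 100 CPM in the Ifit3-negative cells of both libraries, so all of them were admitted by their level in the chosen cells of at least 1 library, and of the 1116 genes that did reach it 0 were higher. Fgl2 (chr5:21372642-21378374, + strand), a secreted fibrinogen-like protein that acts on immune cells, had the largest ratio of the 8 in both libraries. Gene positions are on the same build as the promoters. Its level was 149 CPM (68.0 to 282) against 5.76 in WT and 256 CPM (212 to 306) against 36.9 in Zeb2KO. Clec2d, the ligand of an inhibitory NK cell receptor, was 149 CPM (68.0 to 282) against 20.2 in WT and 107 CPM (79.8 to 142) against 28.4 in Zeb2KO. Tspo (chr15:83563592-83574203, + strand) encodes the outer mitochondrial membrane protein that serves as the target of microglial imaging tracers. It was 380 CPM (241 to 570) against 78.4 in WT and 307 CPM (259 to 362) against 108 in Zeb2KO, and 1 cell held 47.8% of its WT UMIs, without which the WT log2 ratio went from 2.14 to 1.36.

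The other five had log2 ratios between 1.05 and 2.17. March5 (chr19:37207543-37222151, + strand), a ubiquitin ligase of the outer mitochondrial membrane, had log2 ratios of 1.55 in WT and 1.64 in Zeb2KO. Sepw1, a small selenoprotein, had 1.80 and 1.17, with 1.06 in WT without the cell richest in it, and Pvrl4, a nectin adhesion molecule, 1.35 and 1.18. The transcript 1600014C10Rik had 2.17 and 1.08. Lacc1, an enzyme that governs mac metabolism, had 1.13 and 1.05, and was at 0.975 in WT once the cell richest in it was left out. Leaving out the richest cell of each gene kept 59 of the 65 genes 2-fold higher in both libraries, 7 of the 8 outside the lists among them. The WT values rest on 9 to 23 UMIs per gene.

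Levels by the Ifit3 UMIs of the chosen cells are given as a description, since Ifit3 chose the cells and the 8 genes were picked for being higher in them. In Zeb2KO the highest class was the 33 cells with 6 or more Ifit3 UMIs. Fgl2 was 170 CPM (98.8 to 272) in the 17 chosen cells with 2 Ifit3 UMIs, 162 CPM (109 to 231) in the 32 with 3 to 5 and 400 CPM (313 to 504) in those with 6 or more. Tspo was 209.6, 249 and 422 CPM and March5 109.8, 151 and 317 CPM in the same order. Pvrl4, at 119.8, 91.9 and 233 CPM, and Lacc1, at 89.8, 75.6 and 183 CPM, were lowest in the middle class, as was Fgl2. In WT, the classes held 7, 3 and 4 cells. Fgl2 had 0 UMIs in the first, which allows up to 128 CPM, 2 in the second and 7 in the third, at 363 CPM (146 to 747), while Tspo was 451 CPM (240.2 to 771) in the first and 363 CPM (146 to 747) in the third. Of the 13 Tspo UMIs in the first class, 11 came from 1 cell. The same rule chose at least 20 cells in 6 libraries of other tissues, the Nr1h3fl/fl liver library among them, where Fgl2 was higher in 4 of the 4 that passed the level filter and 2-fold in 1 of them, and Tspo was higher in 5 of 6 and 2-fold in 0. Clec2d in 3 libraries, March5 in 3, Sepw1 in 6 and Lacc1 in 2 were 2-fold higher in 0, and 1600014C10Rik passed in 0. Pvrl4 was 2-fold higher in the 1 library where it passed, Zeb2KO spleen, and had log2 ratios of 0.03 to 0.45 in the others. It passed there by its level in the chosen cells (132 against 33.6 CPM), as did Fgl2 in WT liver (110 against 79.8 CPM) and Zeb2KO spleen (115 against 34.6 CPM). The filter thus favours genes higher in chosen cells, and these counts, given without a share over all genes, are a description only. Rsad2 was 2-fold higher in 6 of 6.

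**Figure D4:**
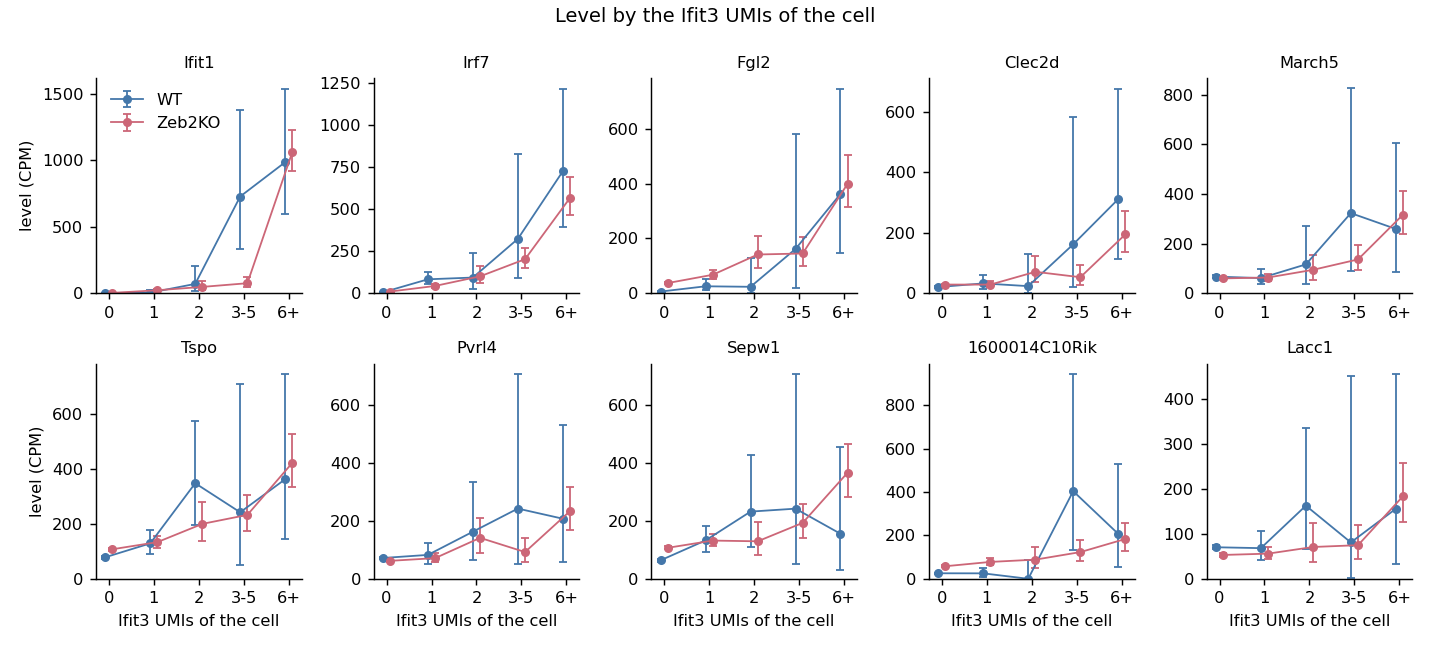
Level in CPM of Ifit1, Irf7 and the 8 genes outside the interferon lists by the Ifit3 UMIs of the cell, whether or not the cell had Isg15, in WT and Zeb2KO, with bars for exact 95% Poisson intervals. In Zeb2KO, Fgl2 goes from 36.9 CPM at 0 Ifit3 UMIs to 400 CPM at 6 or more, and March5 from 59.6 to 317 CPM.

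Other programmes of microglia mostly stayed under the 2-fold rule, which leaves out smaller shifts and genes under the level filter. No gene passed in either direction among 28 microglia identity genes (median log2 ratio -0.09 in WT and -0.22 in Zeb2KO), 12 genes of disease-associated microglia (0.05 and 0.05), 13 inflammatory genes (-0.23 and -0.09), 22 immediate early genes (-0.20 and -0.22), 9 complement genes, 8 cell death genes, 24 lysosomal genes or 85 ribosomal genes. The 3 MHC class II genes considered, of 11, had medians of 0.58 and 0.38 and also did not pass, nor did the 2 cell cycle genes considered, of 30. Over the 1196 genes outside the interferon lists, 0.669% were higher and 0 lower. A count of 0 in lists of this size is near that share and is a description only. In Zeb2KO the summed level was 14271 against 10198 CPM for MHC class II and 1049 against 680 CPM for cell cycle genes. In WT it was 1107 against 853 CPM and 578 against 571 CPM. Among 10 Fc and scavenger receptors, Fcgr1 alone passed. In Zeb2KO, P2ry12 was 2356 CPM (2138 to 2592) in cells with 6 or more Ifit3 UMIs against 3385 CPM (3356 to 3415) at 0, a difference of less than 2-fold outside its counting error. In WT it was 3523 CPM (2736 to 4466) against 4426 CPM (4388 to 4464).

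Within a single library the lists of differences were longer. In Zeb2KO 95 of 1558 genes were higher (6.1%) and 2 lower (0.128%), Hist1h1c and Ddit4, at log2 ratios of -1.58 and -1.13. Of the 95, 15 were outside the interferon lists and 13 of these had the same sign in WT. The 13 include the 8 genes named above, whose shared sign was set by the rule that chose them. Gadd45g went the other way in WT, and Ly6i had 0 UMIs in the WT chosen cells. No share of matching signs over all genes is given, so the count is a description only. One of the 15 was Axl, a receptor for apoptotic cells. It stood at 161 CPM in Zeb2KO cells with 6 or more Ifit3 UMIs against 25.6 CPM at 0. Its 2 UMIs in the WT chosen cells came from 1 cell. In WT 144 of 1752 were higher (8.22%) and 84 lower (4.79%). The 80 lower genes outside the lists had a median of 3 UMIs in the chosen cells, and 56 had the same sign in Zeb2KO.

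**Figure D5:**
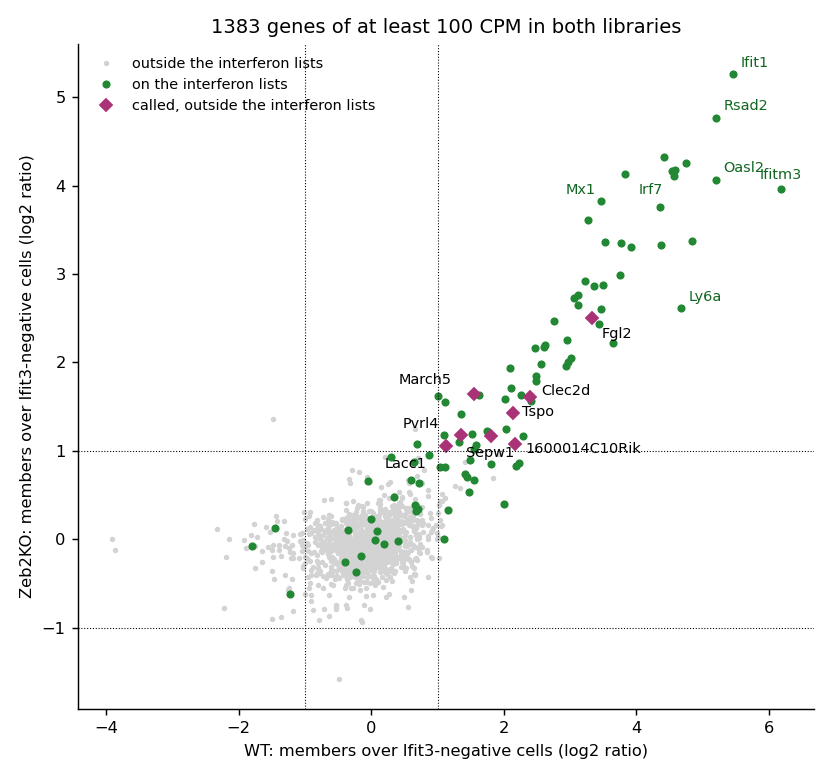
Log2 ratio of interferon-responsive over Ifit3-negative microglia in WT (horizontal axis) and Zeb2KO (vertical axis), 1 point per gene considered and dotted lines at 2-fold. Ifit1 lies at 5.46 and 5.26 and Fgl2 at 3.33 and 2.50, and no gene is 2-fold lower in both libraries.

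Ifnb1, the gene of interferon beta, was looked up after its values were seen. In Zeb2KO it was detected in 9 of 82 interferon-responsive cells (10.98%, 5.14 to 19.8%), with 31 UMIs in all, and in 11 of 2933 Ifit3-negative cells (0.375%, 0.187 to 0.670%), with 23 UMIs. In WT it was detected in 0 of 14 and 1 of 2758 cells. Of the 228 Zeb2KO cells in neither class, 1 held Ifnb1, with 6 UMIs. Cells with an Ifnb1 UMI thus lay in each class of the Zeb2KO library, and 0 of 14 WT cells does not set a share beside it. Background RNA was not estimated.

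Between the genotypes, the interferon genes that were higher in the chosen cells of both libraries were compared first, a choice that leaves out genes present in 1 genotype alone. Of the 57 higher interferon genes, 0 were 2-fold higher and 2 were 2-fold lower in Zeb2KO than in WT chosen cells, Fcgr1 at a log2 ratio of -1.62 and Ifitm3 at -1.31, and the median was -0.14. The direction depended on the scaling, because TMM put the median at 0.18, with 2 genes higher, Samhd1 and Sp100, and 1 lower, Fcgr1 at -1.31. Per the study's methods the CRE cassette of the Zeb2KO mice sits in the Fcgr1 3′ untranslated region, next to the end that was sequenced. Whether this altered the Fcgr1 counts was not tested, so that its level cannot be compared safely between the genotypes. In the Ifit3-negative cells of the same libraries, with no level floor, 5 of the 57 were higher and 1 lower, Fcgr1 at -1.10. Of the 57, 51 lay above 0 and the median was 0.41 (6, 0, 53 and 0.46 under TMM). Among the 5, only Ifi27l2a reached 100 CPM, while Ifi204, Ly6a, Sp100 and Oasl2 (26.3 against 3.76 CPM) were below it in both libraries. With the floor, 5.26% of 1596 genes of all kinds were higher and 4.26% lower in these cells, which is not like for like. Of interferon genes outside the 57, the chemokine Ccl5, named after its values were seen, had 0 UMIs in WT and 203 in Zeb2KO chosen cells, at least 8.80-fold higher by a floor of 3 counts in WT, and Cxcl10 had 6 and 501 UMIs, a log2 ratio of 3.32. Ccl5 was higher in the Zeb2KO Ifit3-negative cells too, at 61.3 against 3.67 CPM in WT, a log2 ratio of 2.38. Only 0.435% of the WT Ifit3-negative cells held Ccl5, and the floor of 3 counts leaves out the spread between cells. The whole list took 5.19% of UMIs in WT and 6.12% in Zeb2KO chosen cells, and 1.80% and 2.99% in the negative ones. Abundant MHC class I genes took 1.13% and 1.94% in the chosen cells, and 0.657% and 1.44% in the negative ones. The median over all genes considered was -0.13 in the chosen and -0.08 in the negative cells.

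Over genes of all kinds the genotypes differed in both classes. In the chosen cells 174 of 1763 genes were higher in Zeb2KO (9.87%) and 195 lower (11.1%), and scaling by TMM, which moved the ratios by 0.31, gave 298 and 96. In Ifit3-negative cells 84 of 1596 were higher (5.26%) and 68 lower (4.26%). The WT chosen cells summed to 60505 UMIs and the WT Ifit3-negative cells to 11980703. Counting error is thus larger in the chosen cells, and the shares of the classes are not like for like. H2-Ab1, an MHC class II chain, had 1 UMI in WT chosen cells and 843 in Zeb2KO ones, 16.5 against 1812 CPM, and 39.1 against 1082 CPM in the negative cells. The cytokine gene Il1b had 0 against 266 UMIs in chosen cells, at least 11.5-fold higher with 0 set to a floor of 3 counts in WT, and the exact interval of its log2 ratio began at 3.22. Spp1, which encodes osteopontin, had 0 against 261, at least 11.3-fold higher by the same floor, with an interval from 3.19. Of the lower genes, Pmp22, a membrane protein gene of myelin, had 16 against 0 UMIs, at least 41.0-fold lower by the same floor in Zeb2KO, and the exact interval of its log2 ratio ended at -4.89. The floor leaves out the counting error of the group that was detected, which the intervals hold. Neither holds the spread of UMIs between cells. Among WT Ifit3-negative cells 8.99% held Il1b and 1.78% Spp1, so that 0 UMIs in 14 WT cells does not set a level for these genes. Adgrg1, an adhesion receptor of microglia, had log2 ratios of -3.86 in chosen and -3.46 in negative cells, and the factor Sox4 had -3.85 and -3.69. H2-Ab1, Il1b, Spp1, Pmp22, Adgrg1 and Sox4 had the same direction in both classes. In the negative cells Pmp22 was at -4.87, Spp1 at 4.61 and Il1b at 2.11 (136 CPM in WT and 623 CPM in Zeb2KO). Of the interferon genes, Ifitm3 went from -1.31 in chosen to 0.92 in negative cells and Cxcl10 from 3.32 to -0.01, differences between the classes that were not tested.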

How the data were processed

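Brain macs were sorted from WT and Zeb2KO mice and measured by 10x 3′ single-cell RNA-seq, 1 library per genotype. The authors ran Cell Ranger, which aligns with STAR, on mm10 and deposited UMI counts per gene and barcode. From these deposited counts, cells beyond 3 median absolute deviations in UMIs, genes or, upwards, mitochondrial share were left out, cells were classed by Ifit3 and Isg15, and counts were summed per class and library and scaled to CPM. Doublets were not called. Genes at 100 CPM or more in at least 1 class of each library were considered, and a gene was called at 2-fold in both libraries, with 10 CPM added. The members, gene lists and rules were chosen with earlier results of these data known. Named genes were the called genes outside the interferon lists, the highest or most abundant called genes of each list and, between genotypes, the 5 largest ratios each way, of which those with a role given are printed. Usp18, Ifit1bl1, Cxcl10, Ccl5, Axl and Ifnb1 were added after their values were seen. Alternatives covered depth, scaling, pseudocount, floor, rule and leaving out the 5% of cells richest in UMIs. Python 3.11.15, numpy 2.4.6, pandas 2.3.3, scipy 1.17.1 and, for TMM, edgeR 4.0.16 in R 4.3.3 were used. The chosen cells summed to 60505 UMIs in WT and 465204 in Zeb2KO, so that 1 UMI was 16.5 CPM in WT. Some items are not reported here.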

Additional observations from a re-analysis of the deposited data

Results flagged for a closer look

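Gadd45g, a gene of the growth arrest and DNA damage-inducible family, moved in opposite directions in the libraries. Its log2 ratio of interferon-responsive over Ifit3-negative microglia was -1.49 in WT (49.6 against 157 CPM) and 1.36 in Zeb2KO (166 against 58.4 CPM). The WT value rests on 3 UMIs. In Zeb2KO 1 cell held 36.4% of the 77 UMIs, and without it the log2 ratio was 0.77, under 2-fold. The difference between the genotypes was not tested.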

How the results depend on the processing

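The 5.11-fold difference in share lay between 4.68 and 6.48 under the alternatives run for it in brain, except at 1000 UMIs per cell, where it was 2.91 (1.13 to 8.85). The count of 65 higher genes became 36 with a floor of 200 CPM and 125 with no floor, and 6 where the floor had to be met in the Ifit3-negative cells of both libraries, an alternative chosen after seeing the data that leaves fewer genes. The count of 8 outside the lists became 5 with 30 CPM added, 16 with a floor of 50 CPM, 3 with one of 200 CPM, 29 with no floor and 0 with the floor met in the negative cells. The 0 lower genes became 4 with all barcodes, 15 with no floor and 5 with a stricter rule. Between genotypes, TMM turned 174 higher and 195 lower genes into 298 and 96. Of the 65 genes 64 remained called at matched depth and 61 under TMM. Lacc1 missed 2-fold with all barcodes, TMM, 30 CPM added, the stricter rule and the 5% of cells richest in UMIs left out, and is the least firm of the 8. The mean difference across tissues was 0.495 to 0.993 points when 1 tissue pair was left out. The mean difference across tissues and the ratios of the 8 genes kept their sign under the alternatives run, while the spleen and colon differences turned negative at 1000 UMIs and the median interferon gene between genotypes turned positive in chosen cells under TMM. The cause of these shifts was not tested. Tissue pairs served as the replicate block in the test across tissues, and within brain no paired analysis was possible because each genotype is 1 library. Depth limits the WT values, since a gene at 100 CPM has about 6 UMIs there.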
